A study of Mus musculus with 9 samples.

Results

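Genes of the NF-kappa-B response, with chemokines and cytokines that the pathway is known to control, were followed across 3 forms of RENCA, a mouse renal carcinoma cell line. The set was chosen by gene symbol, with earlier results of these data known. It holds 42 of the 54532 genes in the deposited count table. Of these, 34 had enough counts to be tested, among 13326 genes tested in all, and 8 were too low to measure. Empty-vector cells have the genotype WT and carried an empty vector. Knockout cells have the genotype NDUFA4L2 -/-, made with CRISPR/Cas9 and a single guide and grown out from single-cell colonies. Rescue cells have the genotype NDUFA4L2 +/+ in the labels and are the knockout line with NDUFA4L2 put back by a lentivirus that carries puromycin resistance. Each form had 3 libraries of poly(A)-selected RNA. The sources used here do not state how many knockout clones were sequenced or if the cells with empty vector had been cloned, so loss of the gene cannot be told apart from editing or clone choice, nor its return from the virus or the selection.

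NF-kappa-B is a family of dimeric transcription factors built from Rela, Relb, Rel and the processed products of Nfkb1 and Nfkb2. In resting cells the dimers are held in the cytoplasm by inhibitors of the I-kappa-B family, and receptors for tumour necrosis factor, interleukin-1 or microbial products release them through adaptor proteins and the I-kappa-B kinases. Targets include chemokines that attract leukocytes, the adhesion molecules that leukocytes grip, and the inhibitors that shut the pathway off again.

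Total counts ran from 13106531 to 26643877 per library. Levels are given as CPM, counts scaled to the TMM-adjusted library size, and 3 counts stood for 0.107 to 0.248 CPM depending on the library. The targeted gene Ndufa4l2 had 6 to 16 counts in empty-vector, 6 to 8 in knockout and 35 to 73 in rescue libraries, so it separates the rescue libraries from the others but not knockout from empty vector. Genes of the mitochondrial genome took 2.16% to 3.17% of counts in empty-vector, 5.79% to 7.93% in knockout and 2.23% to 2.65% in rescue libraries. Of 10 renal epithelial markers 8 were measurable. Their list summed to 991 to 1220 CPM in empty-vector, 1610 to 1740 in knockout and 1330 to 1380 in rescue libraries. In knockout 5 of the 8 rose (62.5%) and 3 fell (37.5%), where 29.5% of all tested genes rose and 31.1% fell. Of 18 leukocyte markers 5 were measurable, and the list summed to 91.5 to 95.8 CPM in empty-vector, 279 to 301 in knockout and 54.0 to 57.8 in rescue libraries, most of it Cd68 and Cd14. All 5 measurable leukocyte markers rose in knockout, where 29.5% of all tested genes rose. All 5 fell from knockout to rescue, where 27.3% of all tested genes fell. The leukocyte genes Cd3e, Itgam, Adgre1 and Nkg7 had no count in any library, and Ptprc had 2 at most. Of 12 endothelial and fibroblast markers 3 were measurable, with sums of 26.7 to 33.8, 60.2 to 71.8 and 28.6 to 30.7 CPM. In such bulk libraries fewer cells of a kind and less RNA per cell cannot be told apart. The labels do not say that replicates were separate cultures, so each p-value reflects no more than library-to-library spread, possibly technical.

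The members too low to measure were 6 cytokines and 2 chemokines. Interleukin-6 (Il6) and interleukin-15 (Il15) each had 1 count over the 9 libraries, Il33 had 6, Il1a 7 and Il18 10. The monocyte chemokine Ccl7 had 7 counts in all and Ccl20, the ligand of Ccr6, had 28. Csf2, the granulocyte-macrophage growth factor, had 39, with 3, 0 and 6 counts with the empty vector, 2, 2 and 2 in the knockout libraries and 11, 9 and 4 after rescue. On the CPM scale its rescue libraries lay above all others, within a range of 0 to 0.493 CPM over the 9 libraries. Apart from Csf2 after rescue, these levels lie near that of 3 counts. None of these members had enough counts to be tested, and no fold is given for them.

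Between genes, levels were compared on the deposited FPKM scale, which accounts for gene length. Csf1, the macrophage growth factor, stood highest of the 42 members in each form, at 168 ± 7.73 FPKM with the empty vector, 142 ± 8.13 after knockout and 66.1 ± 5.40 after rescue (SD, n = 3). In empty-vector cells Tnfaip2 followed at 48.9 ± 0.694, then Rela at 38.5 ± 1.00 and the tumour necrosis factor receptor gene Tnfrsf1a at 36.9 ± 1.15 FPKM. The levels of the next genes, Nfkbib (21.4 ± 0.602), Cd40 (20.8 ± 1.65) and Nfkb2 (20.3 ± 2.04), did not differ beyond their spread. In knockout cells Csf1 was followed by Tnfrsf1a at 41.5 ± 1.76, Rela at 30.3 ± 1.69 and Tnfaip2 at 27.2 ± 1.26 FPKM. In rescue cells it was followed by Tnfaip2 at 42.7 ± 0.847, Tnfrsf1a at 35.4 ± 0.724 and Rela at 26.8 ± 1.44 FPKM. Several chemokines were far lower, with Cxcl10 at 2.42 ± 0.0556, Cxcl2 at 1.57 ± 0.280 and Cxcl1 at 0.949 ± 0.197 FPKM in empty-vector cells.

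In knockout against empty vector more members fell than rose. As the set was chosen with earlier results of these data known, its shares here and in the other comparisons only describe it. They are no test of the pathway. Of the 34 tested members 19 fell (55.9%), where 31.1% of all tested genes fell, and 5 rose (14.7%), where 29.5% of all tested genes rose (edgeR adjusted p under 0.05). In either direction 24 members changed (70.6%), against 60.6% of all tested genes. Falls of at least 1 log2 unit were seen in 7 members (20.6%), against 3.92% of all tested genes, and rises of that size in 2 (5.88%), against 8.13%. The median log2 change was -0.34 over the tested members and -0.02 over all genes tested. Those that fell by at least 1 log2 unit were Il23a, Traf5, Icam1, Il13ra1, Cxcl2, Cxcl1 and Cxcl16, and those that rose by that much were Tnfrsf1b and Cx3cl1. Scaled by library totals alone, all genes had a median of -0.17, and 21 members fell and 3 rose.

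In rescue against knockout the members divided almost evenly. There 11 rose (32.4%), where 29.5% of all tested genes rose, and 10 fell (29.4%), where 27.3% of all tested genes fell. In either direction 21 changed (61.8%), against 56.8%. Cxcl5 is counted among those that rose, here and against empty vector, though it passed the filter on low counts only through the rescue libraries. Ccl5 is counted among those that fell, though no rescue library reached the level of that filter. Rises of at least 1 log2 unit were seen in 7 members (20.6%), against 2.07% of all tested genes, and falls of that size in 5 (14.7%), against 8.40%. Cxcl5 is among the former and Ccl5 among the latter. The median log2 change was 0.04, against 0.03 over all genes tested. With library totals alone the median over all genes moved to 0.22, and 18 members rose and 7 fell.

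In rescue against empty vector most members called were lower. There 16 members were lower in rescue (47.1%), where 25.1% of all tested genes were lower, and 2 were higher (5.88%), where 22.4% were higher. In either direction 18 differed (52.9%), against 47.5%. By at least 1 log2 unit 4 were lower (11.8%), against 3.29% of all tested genes, and 1 was higher (2.94%), against 2.12%. The rescue libraries lay below every empty-vector library for 20 members (58.8%), against 28.6% of all tested genes, and above every one for 1 (2.94%), against 26.5%. In both counts the 1 higher member was Cxcl5, which passed the filter on low counts only through the rescue libraries. The median log2 change was -0.34, against -0.02 over all genes tested. The comparisons share libraries, so their values stand side by side below.

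**Figure D1:**
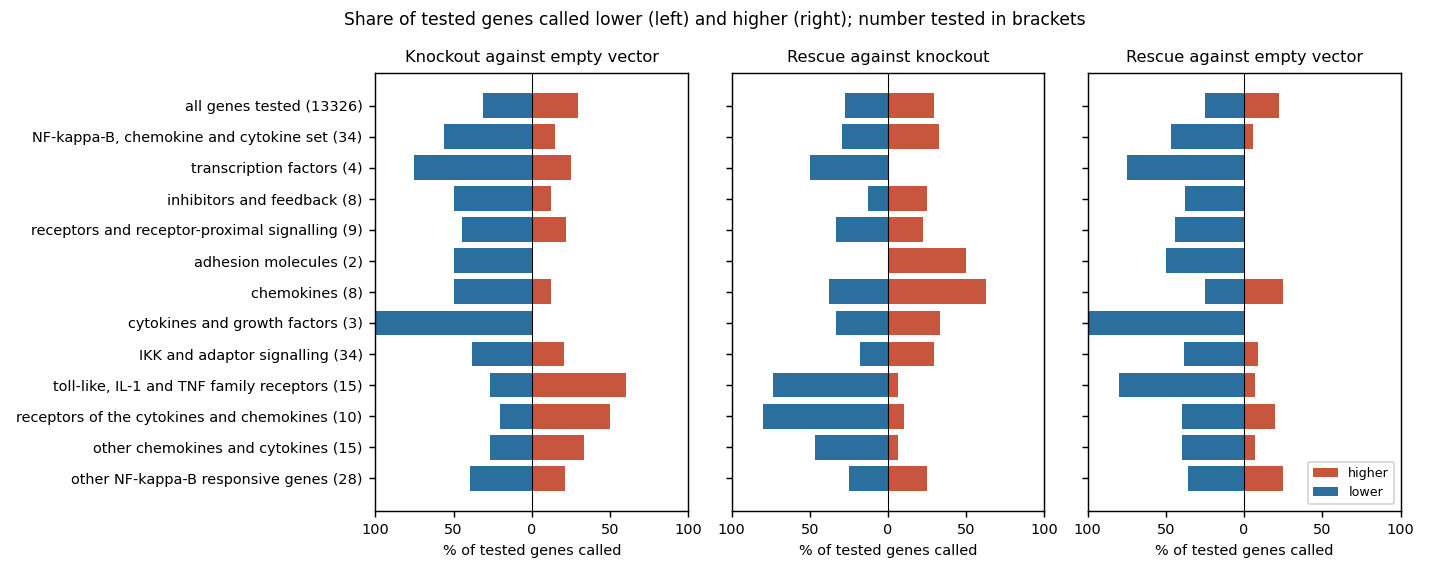
Share of tested genes (x axis, percent) called lower (left) and higher (right) at an edgeR adjusted p under 0.05 in each comparison, for all genes tested, the 34 tested members, their role groups and 5 lists of other pathway genes. Among the members 19 were lower in knockout and 16 lower in rescue, both against empty vector.

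**Figure D2:**
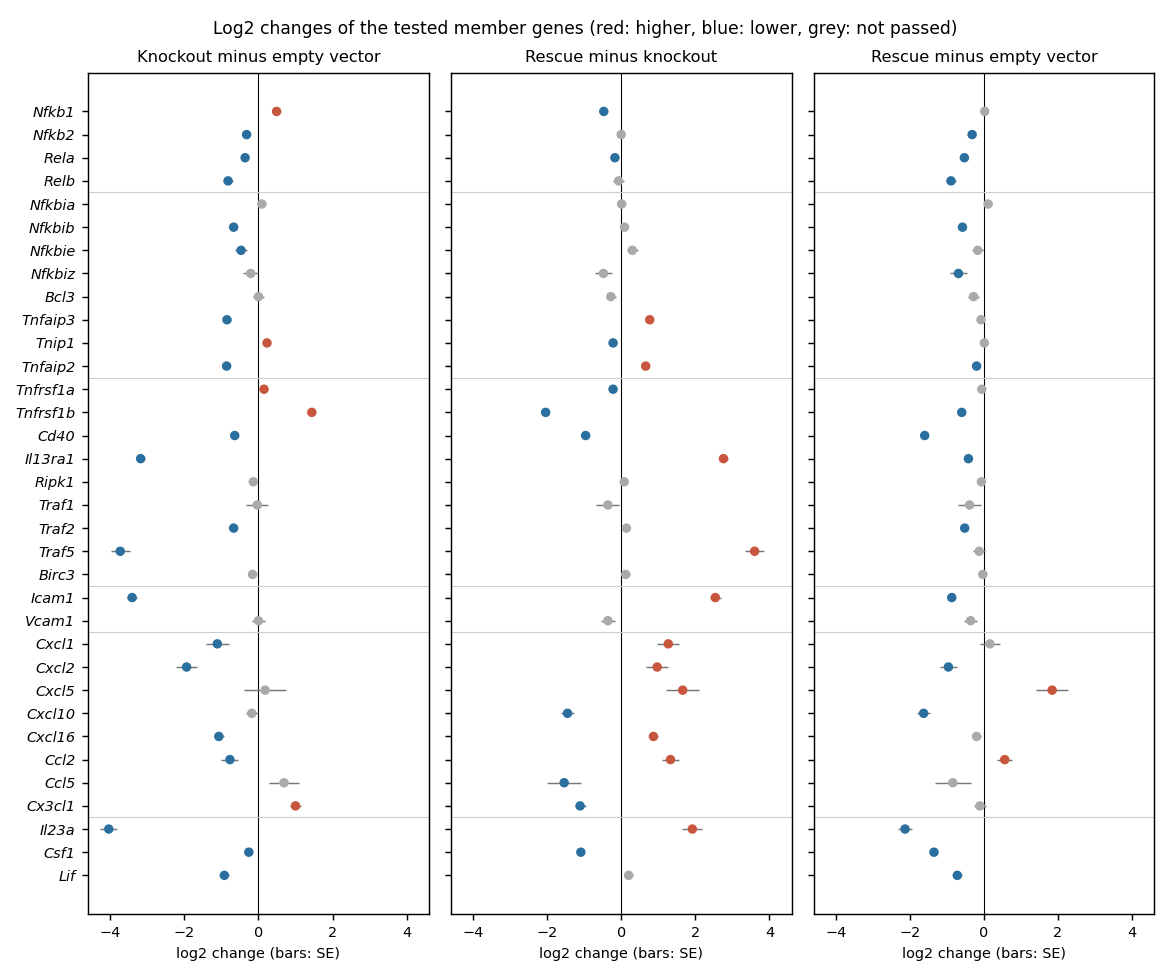
Log2 change of each tested member in the 3 comparisons (x axis, bars are SE), grouped by role. Il23a, Traf5, Icam1 and Il13ra1 stand farthest left in knockout minus empty vector, at -4.04 to -3.18, and Tnfrsf1b farthest right at 1.44. Cxcl5 is plotted though it passed the filter on low counts only through rescue libraries, and Ccl5 though no rescue library reached it.

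The promoters of the 6 members with the largest called changes in knockout among those with a window are shown beside that of Nfkbia, an inhibitor gene commonly read as a target of the pathway, which did not pass the test. They are the 250 bases before the start site, 5′ to 3′ in the direction of transcription, from RefSeq on GRCm38.p6, which held a window for 30 of the 42 members. Il23a and Cxcl16 have no entry. Capitals mark matches of a kappa-B-type motif (GGG, any 3 bases, T, any base, CC), a common form of the site that Rel dimers bind, searched on both strands, and matches may overlap each other. Icam1 lies at chr9:21015690-21015939 on the plus strand, Traf5 at chr1:192092600-192092849 on the minus strand and Il13ra1 at chrX:36111858-36112107 on the plus strand. Cxcl2 lies at chr5:90903649-90903898 and Cxcl1 at chr5:90890995-90891244, both on the plus strand. Tnfrsf1b lies at chr4:145246871-145247120 and Nfkbia at chr12:55492648-55492897, both on the minus strand.
Traf5: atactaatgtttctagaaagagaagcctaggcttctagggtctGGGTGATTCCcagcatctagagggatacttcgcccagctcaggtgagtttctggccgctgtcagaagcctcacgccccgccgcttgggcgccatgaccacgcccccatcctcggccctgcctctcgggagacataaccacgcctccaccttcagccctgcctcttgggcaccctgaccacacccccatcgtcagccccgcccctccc
Icam1: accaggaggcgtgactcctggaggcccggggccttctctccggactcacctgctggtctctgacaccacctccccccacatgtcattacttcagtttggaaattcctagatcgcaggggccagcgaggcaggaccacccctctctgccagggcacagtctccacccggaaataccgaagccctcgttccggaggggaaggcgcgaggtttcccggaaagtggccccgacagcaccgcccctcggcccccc
Il13ra1: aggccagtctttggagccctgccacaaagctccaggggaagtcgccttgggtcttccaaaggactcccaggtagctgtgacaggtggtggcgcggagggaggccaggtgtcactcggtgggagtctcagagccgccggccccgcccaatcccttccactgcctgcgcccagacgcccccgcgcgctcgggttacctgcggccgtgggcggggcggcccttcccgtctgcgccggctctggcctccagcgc
Cxcl2: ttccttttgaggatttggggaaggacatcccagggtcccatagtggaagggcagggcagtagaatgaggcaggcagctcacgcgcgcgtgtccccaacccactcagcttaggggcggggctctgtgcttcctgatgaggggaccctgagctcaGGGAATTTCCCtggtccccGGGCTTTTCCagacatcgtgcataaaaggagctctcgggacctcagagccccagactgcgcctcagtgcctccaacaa
Cxcl1: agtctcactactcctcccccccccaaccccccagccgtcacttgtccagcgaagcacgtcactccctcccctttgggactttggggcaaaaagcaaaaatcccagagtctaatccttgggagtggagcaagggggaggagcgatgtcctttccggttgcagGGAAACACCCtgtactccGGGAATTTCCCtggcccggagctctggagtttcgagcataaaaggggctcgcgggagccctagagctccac
Tnfrsf1b: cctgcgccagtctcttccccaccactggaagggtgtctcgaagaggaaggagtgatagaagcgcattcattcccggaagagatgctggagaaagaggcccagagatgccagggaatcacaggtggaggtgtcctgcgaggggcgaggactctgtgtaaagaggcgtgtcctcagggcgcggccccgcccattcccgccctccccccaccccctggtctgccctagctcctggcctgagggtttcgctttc
Nfkbia: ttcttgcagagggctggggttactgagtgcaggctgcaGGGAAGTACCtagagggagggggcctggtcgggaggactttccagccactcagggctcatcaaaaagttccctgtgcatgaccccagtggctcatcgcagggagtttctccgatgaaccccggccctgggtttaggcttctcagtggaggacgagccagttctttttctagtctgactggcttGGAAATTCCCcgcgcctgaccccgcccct

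Of the 30 members with a window 13 (43.3%) held the motif, against 14.9% of the 32851 promoters of that length in the table. A member with several windows, such as Nfkb2 or Tnfaip3, counts if any of them held it. The promoters are counted singly, so these shares are not on the same footing. It was found in 8 of 14 members that fell in knockout, 1 of 4 that rose and 2 of 6 that did not pass. Cxcl2 and Cxcl1, which fell, share the run GGGAATTTCC, 97 bases before the start site in Cxcl2 and 71 in Cxcl1. Nfkbia, which did not pass, held 2 matches, the nearer 29 bases before its start site. The windows of Icam1, Il13ra1 and Tnfrsf1b held no match to these letters. A match describes the sequence and is not a measured binding site.

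Among the transcription factors, Nfkb1 rose in knockout cells and the other 3 fell. Nfkb1, which yields the p50 subunit, stood at 54.6, 52.1 and 48.3 CPM with the empty vector, 69.2, 72.5 and 75.7 in the knockout libraries and 49.7, 53.0 and 55.2 after rescue. Knockout libraries were above those of both other forms without overlap. The log2 change was 0.49 ± 0.07 in knockout against empty vector (SE; edgeR adjusted p = 3.7e-06), -0.47 ± 0.07 in rescue against knockout (edgeR adjusted p = 7.8e-06; -0.28 with library totals alone) and 0.02 ± 0.07 in rescue against empty vector (edgeR adjusted p = 0.8). Relb, partner of p52 in the non-canonical branch, stood at 32.6, 26.7 and 27.1 CPM in the libraries with the empty vector, at 14.4, 14.0 and 19.9 in those of the knockout and at 13.8, 16 and 17.2 in those of the rescue. Knockout and rescue libraries overlapped and both lay below empty vector. Relb fell by 0.82 on the log2 scale in knockout (SE 0.13; edgeR adjusted p = 4.7e-05) and was changed by -0.89 ± 0.13 in rescue against empty vector (edgeR adjusted p = 3.6e-05).

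Rela, the p65 subunit of the classical dimer, stood at 104, 110 and 104 CPM with the empty vector, 83.0, 77.4 and 86.8 in the knockout libraries and 69.5, 73.4 and 77.2 after rescue. Rescue libraries lay below knockout and knockout below empty vector, with no overlap. The log2 change was -0.36 ± 0.06 in knockout against empty vector (edgeR adjusted p = 6.2e-05) and -0.53 ± 0.06 in rescue against empty vector (edgeR adjusted p = 1.4e-06). The step from knockout to rescue, -0.17 ± 0.06 (edgeR adjusted p = 0.027), lost its call without knockout replicate 1 or 3 or rescue replicate 1 or 2, and was 0.01 with library totals alone. Nfkb2, which yields p52, stood at 74.0, 62.2 and 65.7 CPM in the libraries with the empty vector, at 54.5, 52.5 and 55.2 in those of the knockout and at 53.4, 55.6 and 53.5 in those of the rescue. Its knockout and rescue libraries overlapped below those of empty vector. The change was -0.32 ± 0.07 in knockout (edgeR adjusted p = 0.00051) and -0.32 ± 0.07 in rescue (edgeR adjusted p = 0.00075), both against empty vector.

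Of 8 inhibitors and feedback genes 4 fell (50%) and 1 rose (12.5%) in knockout, where 31.1% of all tested genes fell and 29.5% rose. Nfkbia, which encodes I-kappa-B alpha, stood at 14.2, 13.4 and 14.8 CPM in the libraries with the empty vector, at 14.1, 12.9 and 17.7 in those of the knockout and at 16.5, 15.1 and 13.8 in those of the rescue. The 3 forms overlapped. The log2 changes were 0.09 ± 0.11, 0.01 ± 0.11 and 0.11 ± 0.11 for knockout versus empty vector, rescue versus knockout and rescue versus empty vector (edgeR adjusted p = 0.5, 0.94 and 0.47). Nfkbib, I-kappa-B beta, stood at 46.9 ± 1.46 CPM with the empty vector, 29.3 ± 1.69 after knockout and 31.4 ± 0.271 after rescue (SD, n = 3). It fell by 0.67 in knockout (SE 0.07; edgeR adjusted p = 6.9e-08), and its step to rescue was 0.09 ± 0.07 (edgeR adjusted p = 0.28). With library totals alone that step was 0.28 and was called (edgeR adjusted p = 0.0037). Nfkbie, I-kappa-B epsilon, fell by 0.47 in knockout (SE 0.15; edgeR adjusted p = 0.012), with an edgeR adjusted p of 0.069 without knockout replicate 2. Among the nuclear I-kappa-B proteins, Bcl3 stood at 7.87 ± 0.527, 7.77 ± 1.33 and 6.49 ± 0.694 CPM in empty vector, knockout and rescue, the order kept wherever 3 means are given, and did not pass in any comparison. Nfkbiz was lower in rescue than in empty vector, -0.69 ± 0.22 (edgeR adjusted p = 0.021), and lost the call without empty-vector replicate 3 or any 1 rescue library (edgeR adjusted p = 0.054 to 0.072).

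Tnfaip3, which encodes the deubiquitinase A20 that ends signalling, stood at 25.8, 28.3 and 28.6 CPM in the libraries with the empty vector, at 14.1, 15.4 and 16.3 in those of the knockout and at 27.8, 27.5 and 22.5 in those of the rescue. Knockout lay below the other forms, which overlapped. It fell by 0.85 on the log2 scale in knockout (SE 0.10; edgeR adjusted p = 3.1e-07), rose by 0.77 ± 0.10 from knockout to rescue (edgeR adjusted p = 1.4e-06) and was at -0.08 ± 0.09 in rescue against empty vector (edgeR adjusted p = 0.48). Tnfaip2, a gene induced by tumour necrosis factor, stood at 247 ± 4.05, 135 ± 6.62 and 215 ± 4.46 CPM (SD, n = 3), with changes of -0.86 ± 0.06 in knockout and 0.66 ± 0.06 from knockout to rescue (edgeR adjusted p = 3.3e-10 and 1.4e-08). Tnip1, which encodes a partner of A20, rose by 0.23 ± 0.07 in knockout (edgeR adjusted p = 0.0047), which became 0.08 with library totals alone (edgeR adjusted p = 0.35).

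**Figure D3:**
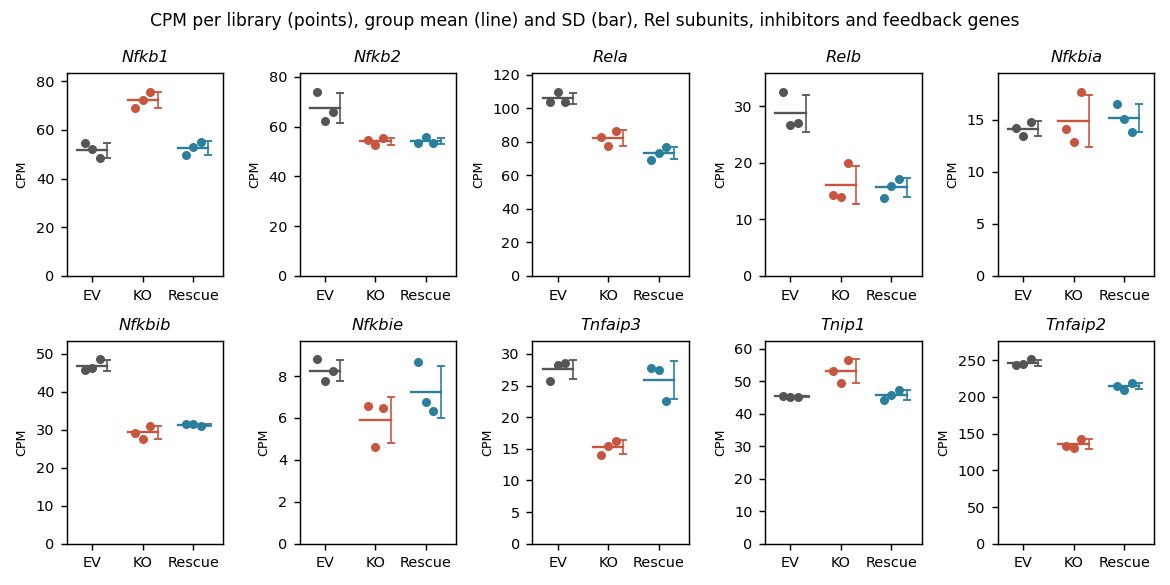
CPM in each library (points), group mean (line) and SD (bar) for Rel subunits, inhibitors and feedback genes in empty-vector (EV), knockout (KO) and rescue cells, each axis starting at 0. Nfkb1 is highest in knockout, at a mean of 72.5 CPM, Tnfaip3 lowest there, at 15.3, and Nfkbia overlaps between the forms.

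Of 9 receptors and receptor-proximal signalling genes 2 rose (22.2%) and 4 fell (44.4%) in knockout, against 29.5% and 31.1% of all tested genes. Tnfrsf1b, which encodes TNFR2, stood at 23.6, 20.1 and 19.1 CPM with the empty vector, 58.2, 56.8 and 55.2 in the knockout libraries and 14.5, 13.5 and 13.4 after rescue. Knockout libraries were far above the others, and rescue lay below empty vector without overlap. It rose 2.71-fold in knockout (log2 1.44 ± 0.08, SE; edgeR adjusted p = 2.4e-11), fell 4.10-fold from knockout to rescue (log2 -2.04 ± 0.09; edgeR adjusted p = 2.7e-13) and was at -0.60 ± 0.09 in rescue against empty vector (edgeR adjusted p = 1.7e-05). The sums of all 3 marker lists given above were also highest in knockout, and their part in this result was not tested. Tnfrsf1a, which encodes TNFR1, stood at 96.6 ± 2.53, 108 ± 4.51 and 92.4 ± 2.01 CPM (SD, n = 3). Its rise of 0.15 ± 0.06 in knockout (edgeR adjusted p = 0.027) became 0.00 with library totals alone and lost its call without empty-vector replicate 2 or 3 or knockout replicate 2 (edgeR adjusted p = 0.11, 0.051 and 0.14). Ripk1, a kinase below that receptor, Birc3, a ubiquitin ligase, and the adaptor gene Traf1 did not pass in any of the 3 comparisons.

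Il13ra1, a receptor chain for interleukin-13 that pairs with the interleukin-4 receptor, stood at 53.4, 45.6 and 45.7 CPM in the libraries with the empty vector, at 6.04, 6.03 and 4.30 in those of the knockout and at 37.0, 35.7 and 35.2 in those of the rescue. The 3 forms did not overlap, with rescue nearer to empty vector. Knockout was 9.08-fold below empty vector (log2 -3.18 ± 0.11; edgeR adjusted p = 3.1e-14). The rise to rescue was 6.77-fold (log2 2.76 ± 0.11; edgeR adjusted p = 2.1e-13), to a level still lower than empty vector, at -0.42 ± 0.09 (edgeR adjusted p = 0.00058). Its partner chain Il4ra, which is no member, moved the other way, from 9.04 ± 0.407 CPM in empty vector to 34.3 ± 2.28 in knockout and 7.76 ± 1.02 in rescue (SD, n = 3).

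Traf5, an adaptor of tumour necrosis factor family receptors, stood at 10.7, 7.84 and 9.71 CPM with the empty vector, 0.636, 0.248 and 1.01 in the knockout libraries and 7.80, 8 and 10.3 after rescue. Its knockout values rested on 10, 3 and 24 counts. Knockout lay below both other forms, which overlapped each other. Its log2 changes came to -3.73 ± 0.26 in knockout against empty vector (edgeR adjusted p = 7.6e-10), 3.60 ± 0.26 in rescue against knockout (edgeR adjusted p = 1.4e-09) and -0.13 ± 0.17 in rescue against empty vector (edgeR adjusted p = 0.55). Without knockout replicate 3 the first became -4.33 and the second 4.20. Traf2, a related adaptor, stood at 90.6 ± 0.417 CPM with the empty vector, 57.0 ± 4.54 after knockout and 63.0 ± 1.24 after rescue (SD, n = 3). It fell by 0.67 in knockout (SE 0.06; edgeR adjusted p = 3.4e-08), and its step from knockout to rescue was 0.14 ± 0.07 (edgeR adjusted p = 0.068). That step was called with library totals alone (0.33; edgeR adjusted p = 0.00036) and with no filter on low counts (0.18; edgeR adjusted p = 0.045). It was also called without empty-vector replicate 1 or knockout replicate 3 (edgeR adjusted p = 0.029 and 0.022).

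Cd40, the receptor for the T-cell ligand CD154, stood at 65.5, 78.2 and 71.3 CPM in the libraries with the empty vector, at 43.9, 49.6 and 45.0 in those of the knockout and at 21.8, 23.6 and 25.9 in those of the rescue. No form overlapped another, with empty vector highest and rescue lowest. On the log2 scale it changed by -0.64 ± 0.08 in knockout against empty vector (edgeR adjusted p = 9.2e-07), -0.96 ± 0.08 in rescue against knockout (edgeR adjusted p = 9.2e-09) and -1.60 ± 0.08 in rescue against empty vector (edgeR adjusted p = 2.9e-11).

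Of the adhesion molecules Icam1 fell and Vcam1 did not pass. Icam1, the ligand of leukocyte integrins (chromosome 9, 21015985 to 21028817, mm10), stood at 30.3, 28.4 and 29.9 CPM in the libraries with the empty vector, at 3.62, 2.64 and 2.23 in those of the knockout and at 16.6, 15.4 and 16.5 in those of the rescue. The 3 forms lay apart, with rescue between the others. Knockout was 10.6-fold below empty vector (log2 -3.41 ± 0.13; edgeR adjusted p = 9.2e-14), rescue 5.81-fold above knockout (log2 2.54 ± 0.14; edgeR adjusted p = 8.5e-12) and 1.83-fold below empty vector (log2 -0.87 ± 0.10; edgeR adjusted p = 9.6e-07). An antisense gene, Gm47079, shares 11.7% of the exon bases of Icam1 and had at most 0.318 CPM in any library. Vcam1, which binds another leukocyte integrin, stood at 3.94 ± 0.294, 3.89 ± 0.574 and 3.10 ± 0.225 CPM (SD, n = 3) and did not pass in any comparison.

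**Figure D4:**
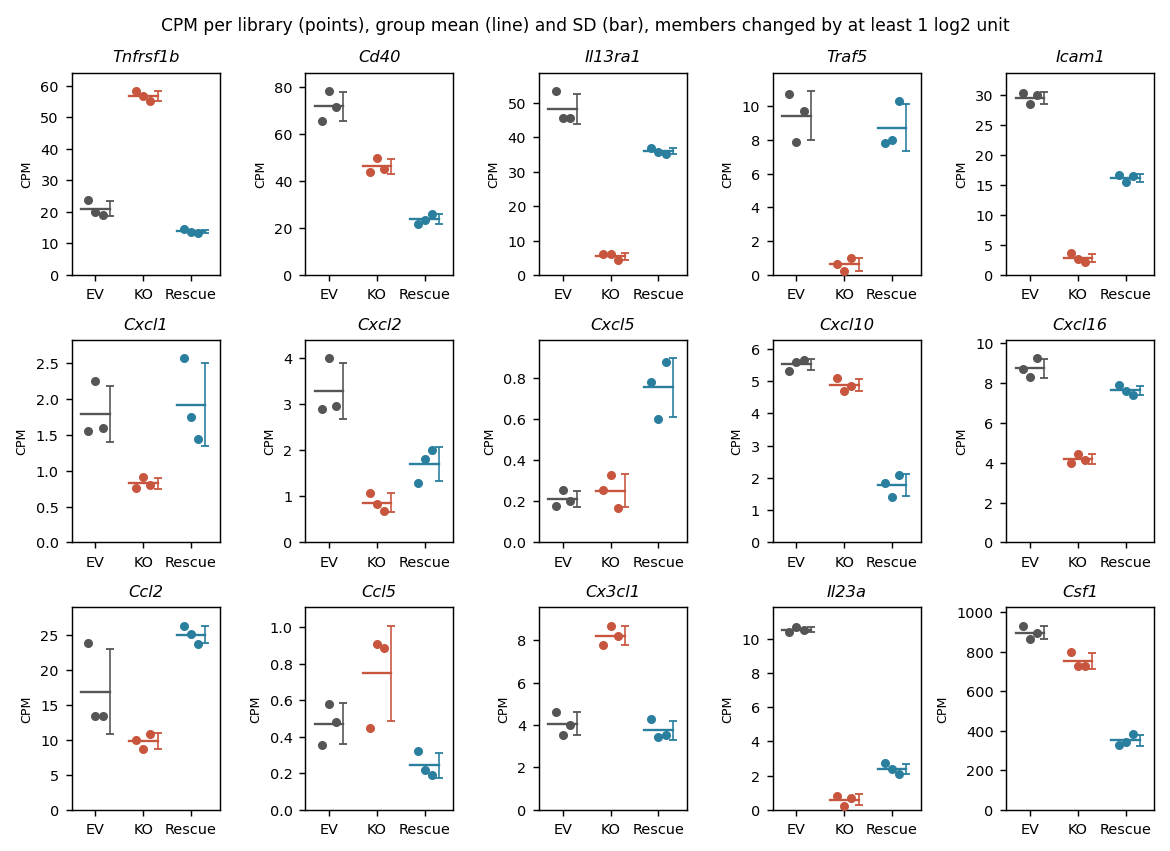
CPM in each library (points), group mean (line) and SD (bar) for the members with a called change of at least 1 log2 unit in some comparison, in empty-vector (EV), knockout (KO) and rescue cells, each axis starting at 0. Il13ra1, Traf5 and Icam1 dip in knockout, to means of 5.46, 0.632 and 2.83 CPM, and Tnfrsf1b and Cx3cl1 peak there, at 56.7 and 8.22. Cxcl5 is shown though it passed the filter on low counts only through rescue libraries, and Ccl5 though no rescue library reached it.

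Of 8 measurable chemokines 4 fell (50%) and 1 rose (12.5%) in knockout, against 31.1% and 29.5% of all tested genes. From knockout to rescue 5 rose (62.5%) and 3 fell (37.5%), against 29.5% and 27.3%. Cxcl5 is counted among those that rose and Ccl5 among those that fell, with the limit of the filter given for each below. Cxcl2, a neutrophil attractant, stood at 2.89, 3.99 and 2.97 CPM with the empty vector, 1.08, 0.826 and 0.674 in the knockout libraries and 1.28, 1.81 and 2.01 after rescue. The 3 forms did not overlap, with knockout lowest. The log2 changes were -1.94 ± 0.28 in knockout against empty vector (edgeR adjusted p = 5.9e-06), 0.97 ± 0.30 in rescue against knockout (edgeR adjusted p = 0.0094, and 0.065 without knockout replicate 3) and -0.96 ± 0.24 in rescue against empty vector (edgeR adjusted p = 0.0028). Cxcl1, which acts on the same receptor, stood at 1.55, 2.25 and 1.60 CPM in the libraries with the empty vector, at 0.763, 0.909 and 0.801 in those of the knockout and at 2.57, 1.75 and 1.45 in those of the rescue. Empty vector and rescue overlapped above knockout. The log2 changes were -1.11 ± 0.31 (edgeR adjusted p = 0.004), 1.27 ± 0.30 (edgeR adjusted p = 0.0013) and, for rescue against empty vector, 0.16 ± 0.26 (edgeR adjusted p = 0.65). Cxcl5, another ligand of this kind, had 4, 4 and 5 counts with the empty vector, 4, 4 and 4 in the knockout libraries and 22, 11 and 14 after rescue. Its rescue libraries lay above all others. In CPM that was 0.212 ± 0.0410, 0.251 ± 0.0810 and 0.756 ± 0.141 (SD, n = 3). Cxcl5 passed the filter on low counts only through the rescue libraries, where it is high, so no fold or test is given for it.

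Cxcl16, a membrane-bound chemokine for activated T cells, stood at 8.70, 8.29 and 9.23 CPM in the libraries with the empty vector, at 4, 4.46 and 4.13 in those of the knockout and at 7.88, 7.61 and 7.42 in those of the rescue. Knockout lay lowest, and rescue lay below empty vector without overlap. It fell by 1.07 on the log2 scale in knockout (SE 0.13; edgeR adjusted p = 7.1e-07), rose by 0.87 ± 0.13 from knockout to rescue (edgeR adjusted p = 1.2e-05) and was at -0.20 ± 0.12 in rescue against empty vector (edgeR adjusted p = 0.18). Zmynd15, on the other strand, shares 18.3% of its exon bases and had at most 0.642 CPM. Cx3cl1, the other membrane-bound chemokine, stood at 4.62, 3.54 and 4.01 CPM with the empty vector, 7.76, 8.67 and 8.22 in the knockout libraries and 4.28, 3.45 and 3.52 after rescue. Knockout lay above the others, which overlapped. The marker sums were highest in knockout too, as said for Tnfrsf1b, and their part was not tested. Its log2 changes were 1.00 ± 0.15 in knockout against empty vector (edgeR adjusted p = 1e-05), -1.11 ± 0.15 in rescue against knockout (edgeR adjusted p = 3.9e-06) and -0.11 ± 0.16 in rescue against empty vector (edgeR adjusted p = 0.61).

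Ccl2, a monocyte attractant, stood at 23.9, 13.4 and 13.4 CPM with the empty vector, 9.98, 8.67 and 10.9 in the knockout libraries and 26.3, 25.1 and 23.8 after rescue. Knockout was lowest, and empty-vector replicate 1 reached into the range of rescue. The rise from knockout to rescue was 1.33 ± 0.22 (edgeR adjusted p = 0.00059) and the change in knockout -0.77 ± 0.23 (edgeR adjusted p = 0.015), which became -0.41 without empty-vector replicate 1 (edgeR adjusted p = 0.0019). The difference of rescue from empty vector, 0.56 ± 0.20 (edgeR adjusted p = 0.048), lost its call with DESeq2 (adjusted p = 0.057) and without any 1 library other than empty-vector replicate 1 (edgeR adjusted p = 0.061 to 0.13). Without empty-vector replicate 1 it was 0.93 (edgeR adjusted p = 2.4e-09).

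Cxcl10 and Ccl5, which are also known as interferon-induced genes, did not pass in knockout. Cxcl10 was lower in rescue than in knockout. Cxcl10, an attractant of T cells, stood at 5.33, 5.59 and 5.66 CPM in the libraries with the empty vector, at 5.09, 4.71 and 4.85 in those of the knockout and at 1.85, 1.42 and 2.08 in those of the rescue. Rescue lay far below both other forms. The log2 change was -1.45 ± 0.18 against knockout (edgeR adjusted p = 1.1e-06) and -1.63 ± 0.17 against empty vector (edgeR adjusted p = 4.3e-07), while knockout against empty vector gave -0.18 ± 0.16 (edgeR adjusted p = 0.34). Art3, on the other strand, shares 5.91% of its exon bases and stood at 50.8 to 52.6 CPM with the empty vector, 48.5 to 55.3 after knockout and 35.7 to 40.6 after rescue, and its part in this result was not tested. Ccl5 had 8, 9 and 12 counts with the empty vector, 7, 11 and 21 in the knockout libraries and 9, 4 and 3 after rescue. Rescue lay below the other forms on the CPM scale, and knockout overlapped empty vector. No rescue library reached the level of the filter on low counts, which Ccl5 passed through the other forms, where it is higher. No fold or test of rescue is therefore given for Ccl5 here, though the counts of members above include it. In knockout against empty vector its log2 change was 0.69 ± 0.40 (edgeR adjusted p = 0.15).

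The measurable cytokines were Il23a, Csf1 and Lif, and each fell in knockout. Il23a, which encodes the p19 chain of interleukin-23 (chromosome 10, 128296139 to 128298752, mm10), stood at 10.4, 10.7 and 10.5 CPM in the libraries with the empty vector, at 0.826, 0.248 and 0.716 in those of the knockout and at 2.71, 2.36 and 2.08 in those of the rescue. Its knockout values rested on 13, 3 and 17 counts. The 3 forms lay apart, with rescue nearer to knockout. Knockout was 16.5-fold below empty vector (log2 -4.04 ± 0.23; edgeR adjusted p = 2e-11), rescue 3.78-fold above knockout (log2 1.92 ± 0.27; edgeR adjusted p = 5e-06) and 4.37-fold below empty vector (log2 -2.13 ± 0.18; edgeR adjusted p = 1.5e-08). Il12b, which encodes the p40 chain that p19 pairs with, had no count in any library.

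Csf1 stood at 930, 866 and 892 CPM in the libraries with the empty vector, at 798, 729 and 725 in those of the knockout and at 329, 342 and 384 in those of the rescue. It was highest in empty vector and lowest in rescue, with no overlap. The log2 changes were -0.26 ± 0.07 in knockout against empty vector (edgeR adjusted p = 0.0046; -0.41 with library totals alone), -1.09 ± 0.07 in rescue against knockout (edgeR adjusted p = 2.2e-10) and -1.35 ± 0.07 in rescue against empty vector (edgeR adjusted p = 7.6e-11). Csf1r, its receptor, stood at 1.08 ± 0.345 CPM with the empty vector, 3.87 ± 0.516 after knockout and 1.39 ± 0.179 after rescue (SD, n = 3). Lif, leukaemia inhibitory factor, stood at 11.3 ± 0.741 CPM with the empty vector, 5.97 ± 0.317 after knockout and 6.94 ± 0.469 after rescue. It fell by 0.92 in knockout (SE 0.12; edgeR adjusted p = 1.8e-06), and its step from knockout to rescue was 0.20 ± 0.13 (edgeR adjusted p = 0.18). With library totals alone that step was 0.39 and was called (edgeR adjusted p = 0.014).

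Other genes of the pathway, taken from 5 lists of symbols, numbered 172, of which 101 were tested. These lists too were chosen with earlier results of the data known. In knockout against empty vector 32 rose (31.7%) and 34 fell (33.7%), near the 29.5% and 31.1% of all tested genes, with a median log2 change of -0.03. In rescue against knockout 20 rose (19.8%) and 39 fell (38.6%), against 29.5% and 27.3% of all tested genes (median -0.15). In rescue against empty vector 14 were higher (13.9%) and 45 lower (44.6%), against 22.4% and 25.1% (median -0.22). The counts in these comparisons include Ripk3, Mmp9, Tnfsf10 and Cxcl11, whose limit of the filter is given below. Of 15 tested toll-like, interleukin-1 family and tumour necrosis factor family receptors 9 rose (60.0%) and 4 fell (26.7%) in knockout, against 29.5% and 31.1% of all tested genes (median 0.72). From knockout to rescue 1 rose (6.67%) and 11 fell (73.3%), against 29.5% and 27.3% (median -1.08). Tlr4, the receptor for bacterial lipopolysaccharide, stood at 60.9 ± 3.12, 106 ± 7.02 and 46.1 ± 3.20 CPM (SD, n = 3). Tlr5, for flagellin, stood at 27.8 ± 0.948, 55.2 ± 4.33 and 23.2 ± 1.42 CPM, and the death receptor gene Tnfrsf21 at 79.7 ± 3.66, 15 ± 1.62 and 30.2 ± 2.20. The marker sums were highest in knockout here too, and their part was not tested.

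Of 34 genes of I-kappa-B kinase and adaptor signalling 7 rose (20.6%) and 13 fell (38.2%) in knockout, against 29.5% and 31.1% of all tested genes, and 10 rose (29.4%) and 6 fell (17.6%) from knockout to rescue, against 29.5% and 27.3%. Chuk, the kinase subunit IKK-alpha, changed by -0.71 ± 0.07 and 0.64 ± 0.07 in those comparisons (log2; edgeR adjusted p = 2.4e-08 and 1e-07). Tab2, which links receptors to the kinase TAK1, changed by -1.05 ± 0.06 and 0.57 ± 0.06 (edgeR adjusted p = 5.8e-11 and 2.6e-07). Ripk3, a kinase of necroptosis, stood at 1.23, 8.06 and 0.120 CPM. It rose by 2.71 ± 0.26 in knockout (edgeR adjusted p = 2.8e-08) and had 7, 2 and 0 counts in the rescue libraries. None of these reached the level of the filter on low counts, which Ripk3 passed through the other forms, so no fold or test of that fall is given. Ripk3 is still counted among the 6 that fell. Of 28 further NF-kappa-B responsive genes 6 rose (21.4%) and 11 fell (39.3%) in knockout, and 7 rose (25.0%) and 7 fell (25.0%) to rescue, against the same shares of all tested genes. Mmp9 is counted in that rise and in that fall to rescue. It had 5, 6 and 14 counts with the empty vector, 31, 12 and 25 in knockout and 9, 8 and 4 in rescue libraries. Mmp9 passed the filter on low counts only through the knockout libraries, where it is high, so no fold or test is given for it. Nuak2, a stress kinase, changed by -1.22 ± 0.07 and 0.83 ± 0.07 (edgeR adjusted p = 2.7e-11 and 6e-09). The stress gene Gadd45b fell by 0.81 in knockout (edgeR adjusted p = 2.8e-09), and Sqstm1, the autophagy receptor p62, fell by 0.69 from knockout to rescue (edgeR adjusted p = 2e-07).

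Among 15 other measurable chemokines and cytokines 5 rose (33.3%) and 4 fell (26.7%) in knockout, against 29.5% and 31.1% of all tested genes, and 1 rose (6.67%) and 7 fell (46.7%) from knockout to rescue, against 29.5% and 27.3%. Tnf itself, a main activator of the pathway, stood at 4.73 CPM with the empty vector, 2.46 after knockout and 1.67 after rescue, with changes of -0.95 ± 0.20 and -0.54 ± 0.22 (edgeR adjusted p = 0.00037 and 0.046). Clcf1, a cytokine of the interleukin-6 family, fell by 0.76 in knockout (edgeR adjusted p = 2.5e-06). Tnfsf9, the ligand of 4-1BB, changed by 0.73 ± 0.12 and -0.61 ± 0.12 (edgeR adjusted p = 3.6e-05 and 0.00025). Tnfsf10, the death ligand TRAIL, had 26, 15 and 20 counts in knockout and 3, 4 and 2 in rescue libraries. No rescue library reached the level of the filter on low counts, which Tnfsf10 passed through the other forms, so no test of that fall is given. Cxcl11 had 17, 14 and 21 counts with the empty vector, 5, 9 and 11 in knockout and 3, 5 and 0 in rescue libraries. It passed the filter through the empty-vector libraries, where it is high, and no rescue library reached it. Tnfsf10 and Cxcl11 are still counted among the 7 that fell. Of 10 measurable receptors for the cytokines and chemokines 5 rose (50%) and 2 fell (20%) in knockout, and 1 rose (10.0%) and 8 fell (80.0%) to rescue, against the same shares of all tested genes. Il4ra changed by 1.92 ± 0.10 and -2.12 ± 0.10 (edgeR adjusted p = 9.3e-12 and 2.6e-12), and Il6ra by 1.38 ± 0.08 and -0.83 ± 0.08 (edgeR adjusted p = 1.2e-10 and 8.1e-08).

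The authors' deposited table gave the same call as edgeR for 33 of 34 tested members in knockout against empty vector, 31 in rescue against knockout and 34 in rescue against empty vector. The calls of the authors' deposited table that differed were Tnfrsf1a in the first comparison and Ccl5, Cxcl2 and Nfkbiz in the second.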

How the data were processed

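Poly(A)-selected RNA of 3 empty-vector, 3 knockout and 3 rescue RENCA libraries was sequenced. Tools named in the submitters' processing notes are CASAVA, TopHat2, HISAT and HISAT2, with the build mm10. The sources used here give neither the counter nor its strand setting, so reads of overlapping antisense genes cannot be told apart. The authors deposited whole-number counts per gene and FPKM, with log2 fold changes and p-values of their own comparisons, per the file headers. The series text speaks of fewer knockout replicates than the 3 in the labels and the table, and all 3 were used.

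Counts were fitted with edgeR 4.0.16 in R 4.3.3 (filterByExpr, TMM, robust quasi-likelihood F-test, all 9 libraries in 1 fit), with Benjamini-Hochberg adjustment over the 13326 genes tested and a call at an adjusted p under 0.05. The SE is the log2 change over the square root of F. The fit was tested on simulated data. Total counts of 13106531 to 26643877 limit the precision of genes with few counts. DESeq2 1.42.0, other scaling, no filter, only the 2 groups compared, a replicate block and leaving out each library were the alternatives. The members and lists were chosen with earlier results of these data known. Values in every library are given for members called with a log2 change of at least 1, the Rel subunits and Nfkbia, with Tnfaip3 added after its values were seen; of each other list, the 2 genes with the smallest adjusted p in knockout against empty vector and in rescue against knockout, and partners of a member, are named.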

Additional observations from a re-analysis of the deposited data

How the results depend on the processing

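The member results recomputed were those called and a listed part of those that did not pass, and the rest were left out. Of the 77 recomputed, 58 kept their direction and call under every alternative run. Members higher in knockout numbered 5, and 3 with library totals alone or with no filter on low counts. Members higher in rescue than in knockout numbered 11, and 18 with library totals alone. Members higher in rescue than in empty vector numbered 2, and 1 with DESeq2 or with only the 2 groups compared, and ranged from 1 to 2 when single libraries were left out. With library totals alone Nfkbia became -0.06 and Tnfrsf1a 0.00 in knockout against empty vector, and Rela became 0.01 in rescue against knockout. In rescue against knockout Nfkbia was -0.01 with DESeq2, -0.01 with its size factors in edgeR and -0.02 with only the 2 groups compared. When single libraries were left out, Nfkbia ran from -0.07 to 0.18 in knockout against empty vector and from -0.07 to 0.17 in rescue against knockout. In rescue against empty vector, Nfkb1 then ran from -0.03 to 0.09, Cxcl1 from -0.14 to 0.32 and Cx3cl1 from -0.23 to 0.02, and Tnfaip3 was 0.00 without rescue replicate 3. The cause was not tested. Same-numbered libraries had correlations of deviations from -0.15 to 0.045. Each deviation is from a mean of 3 libraries, so these values cannot show if the numbers pair the samples, and the labels do not say. With the replicate block the counts of members stayed within 1.5 times of those without it, and no member result changed call or direction.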
